A study of Mus musculus with 12 samples.

Results

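D2A1 and D2.OR, a pair of mammary tumor lines of the mouse, were compared as they grew in 2D, on plastic. The comparison takes the 3 D2.OR and the 3 D2A1 libraries in 2D, which are 6 of the 12 RNA-seq libraries of the series, and the other 6 were made from the same lines grown in 3D on Matrigel. The origin of each line was a D2 hyperplastic alveolar nodule tumor of its own, and the mice were not the same. Each group is therefore 1 cell line, and the line, its tumor and its mouse of origin cannot be told apart. The lines were not authenticated, according to the study's reporting summary, and DNA copy number was not measured in the files used here. Cells were grown for a week, several wells were pooled for each library, and no drug or genetic change separated the groups. One section of the methods gives a standard serum medium for 2D culture and another gives the medium of the 3D assay. The RNA-seq methods refer to the former section for seeding, although it does not describe the 3D culture. The labels do not say which medium applied. Replicates 1, 2 and 3 are batches 1, 2 and 3, and a batch shared 1 sequencing lane. The study states for its findings in general that they were seen in biological repeats, whereas the labels do not say whether these replicates were separate cultures, so that p-values measure only the spread between these samples.

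Both lines are used as a pair because they form metastases to different degrees: D2A1 cells grow out in distant organs, whereas D2.OR cells can persist there in a dormant state. Mammary epithelium consists of luminal cells, which carry keratins such as Krt8 and Krt18 and adhere through E-cadherin, and of basal cells, which carry Krt5 and Krt14. Tumor cells can lose these features and take up those of mesenchyme, such as vimentin and matrix proteins. The identity of a cell line is held by transcription factors, by the silencing of genes in chromatin, and often by changes in the number of chromosomes.

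The D2A1 libraries held 47589611 to 58932784 expected counts and the D2.OR libraries 54374019 to 73325069, with the lowest total in replicate 1 of D2A1 and the highest in replicate 1 of D2.OR. Mitochondrial genes took 1.42% to 2.2% of the counts. On the first principal component of the 6 libraries, which held 79.2% of the variance of log2 CPM, D2A1 scored -112.8 to -96.45 and D2.OR 104.2 to 109.2. CPM are counts scaled to library size after TMM, a normalization for library composition. The second component, with 9.63%, set replicate 1 of both lines (58.16 and 46.3) apart from the other 4 libraries (-33.76 to -20.05). The values of replicate 1 are given apart below where they stand out.

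Epithelial markers were checked first, because the labels name both lines as mammary. In D2A1 most defining luminal markers were near 0, and in D2.OR they were expressed in part. Krt8, a luminal keratin, had 1.92, 0.813 and 0.879 CPM in the D2A1 libraries against 893, 724 and 1047 CPM in D2.OR. Its partner Krt18 had 211, 143 and 204 CPM in the D2A1 libraries against 475, 341 and 512 CPM in D2.OR, and was thus expressed in both lines. Cdh1, which encodes E-cadherin, had 0.445, 0.0488 and 0.105 CPM in the D2A1 libraries against 496, 59.5 and 61.3 CPM in D2.OR, so that replicate 1 of D2.OR was far above the other D2.OR libraries. The log2-fold change of Cdh1 was 9.81 with that library and 9.45 without it (edgeR adjusted p = 1.23e-07 and 2.96e-07). In RNA from whole cultures, more cells of a kind and more RNA per cell cannot be told apart. Of 14 luminal markers, 3 reached 1 CPM in all D2A1 libraries and 9 did so in all D2.OR libraries, and their summed CPM was 152 to 226 in D2A1 and 1170 to 1930 in D2.OR. Krt18 held most of the D2A1 sum. Krt5 and Pgr had 0 counts in all 6 libraries, and Elf5 had at most 2. The 8 basal markers summed to 6.03 to 6.71 CPM in D2A1 and 38.7 to 56.1 CPM in D2.OR. By contrast, 14 mesenchyme markers summed to 5610 to 12600 CPM in D2A1 and 11500 to 18000 CPM in D2.OR. Fn1, which did not pass the test, held most of the sum in D2A1 replicates 2 and 3. Of the 14, 9 were called higher in D2.OR and 2 (Zeb1 and S100a4) lower, with a median log2-fold change of 1.64. Twist1, a mesenchymal transcription factor, was among those that did not pass, with 83.5, 90.1 and 90.1 CPM in the D2A1 libraries against 91.5, 85.5 and 78.2 CPM in D2.OR. Markers of other cell types were low in both lines: 7 leukocyte genes summed to 4.25 to 19.2 CPM in D2A1 and 1.63 to 3.72 CPM in D2.OR, most of it Cd68, 6 endothelial genes summed to at most 1.05 CPM, and 5 adipocyte genes to 8.21 to 14.8 CPM and 2.15 to 13.7 CPM.

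The lines differed in many genes, by a small factor for most of them and by a large one for a minority. Of 16823 genes tested, 8378 (49.8%) had an edgeR adjusted p under 0.05, of which 4275 (25.4%) were higher and 4103 (24.4%) were lower in D2.OR. Of these, 4210 differed by less than 2-fold. A difference of at least 4-fold, in the same direction in all 3 batches, was found for 2274 genes (13.5%), 1537 higher (9.14%) and 737 lower (4.38%) in D2.OR. Of the 2274 genes, 686 had at most 3 counts in every library of a line, so that their fitted differences rest on the prior count, and for 198 of these the bound set by 3 counts was under 4-fold. At least 16-fold differences were fitted for 1029 genes, 753 higher and 276 lower. At the other end, the 95% interval of the difference lay within 1.5-fold of no change for 3613 genes (21.5%). The split of all calls depended on the scaling: when libraries were scaled by their total instead of TMM, 3394 genes were higher and 5399 lower, as the median of all genes moved from 0.00 to -0.17 on the log2 scale. On log2(TPM + 0.1) with limma, the median was -0.11 and 41.8% of the calls were higher in D2.OR, against 51% in the TMM fit, and on log2(TPM + 1) 41% were higher. The excess of higher genes among those with a 4-fold difference was kept, with 1424 higher and 842 lower under the library total.

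The number of calls depended on the libraries that entered the fit. Without batch 1, 9062 genes had an adjusted p under 0.05, without batch 2 4227 and without batch 3 5400, and with the 6 libraries in 2D alone 5759 did. The 4-fold rule gave 2457, 1855 and 1988 genes without batches 1, 2 and 3, and 1853 with the 2D libraries alone. It gave 739 where every library had to hold at least 10 counts and 747 with limma on log2(TPM + 1), settings under which 6582 and 7936 genes were called. Of the 2457, 2033 were among the 2274. The 3D libraries did not enter the 2D rule on batches, although they share the estimate of spread. There, 1457 of the 1537 genes were higher in D2.OR in all 3 batches, a direction shared by 38.5% of all genes tested, and 646 of the 737 were lower in all 3, against 39% of all genes. Of protein-coding genes tested, 13.8% passed the 4-fold rule.

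**Figure D1:**
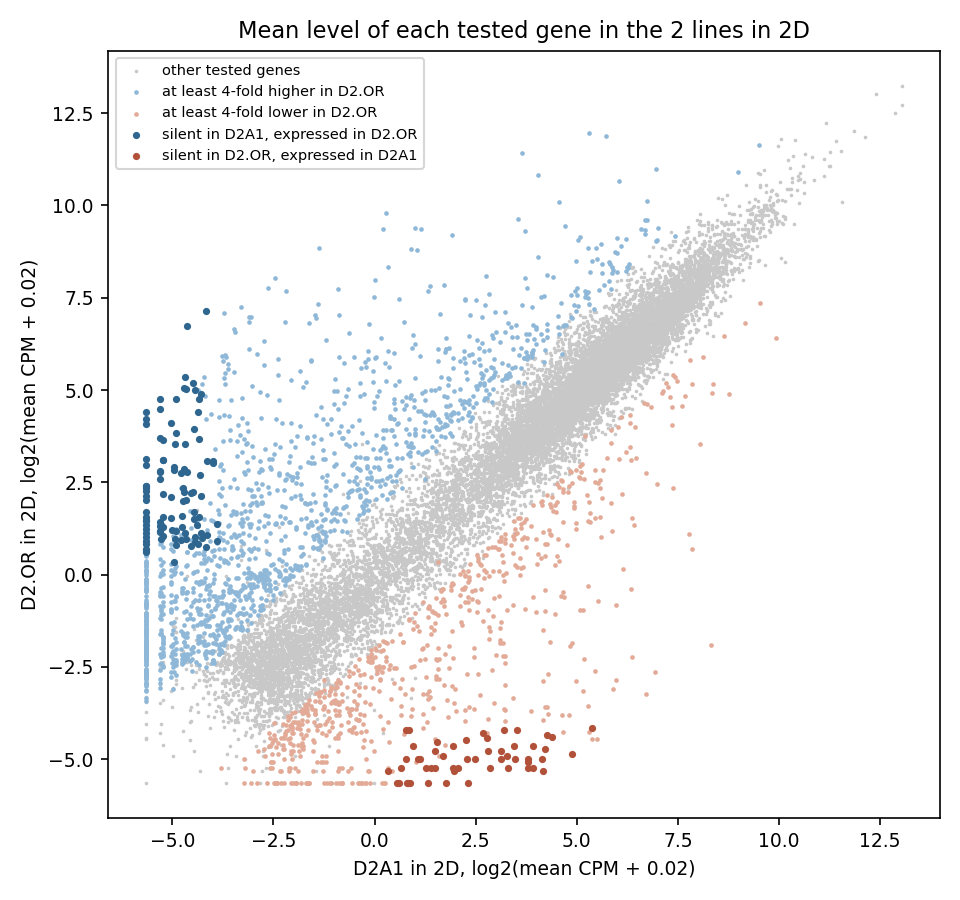
Mean CPM of each of the 16823 tested genes in D2A1 (x axis) and D2.OR (y axis) in 2D, both as log2(mean CPM + 0.02), with 1 point per gene. Colored points mark the 1537 genes at least 4-fold higher and the 737 at least 4-fold lower in D2.OR, and darker points mark the 102 and 53 genes silent in one line and expressed in the other, which lie at the left and lower edges among other genes near 0 in a line.

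Genes that were silent in one line and expressed in the other formed the extreme of this difference. A gene was called silent at 3 counts or fewer in each library of a line, and expressed at 1 CPM or more in each library. By these limits 102 genes were silent in D2A1 and expressed in D2.OR (0.814% of the 12529 genes expressed in either line), and 53 were silent in D2.OR and expressed in D2A1 (0.423%). They were chosen on the 2D values, which are therefore a description and carry no test, and folds are lower bounds against a floor of 3 counts per library. At the limits, a gene with 3 counts and one with 4 are treated differently, and allowing 10 counts gave 214 and 97 genes. Without replicate 1 the limits gave 161 and 81 genes.

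The 102 genes silent in D2A1 included 91 protein-coding genes, and 24 had no count in any D2A1 library. Their mean level in D2.OR ran from 1.24 to 141 CPM, with a median of 4.33 CPM, and 24 reached 10 CPM. The 10 with the highest level are described first. F2rl1, the protease-activated receptor PAR2, had 107, 151 and 165 CPM in D2.OR and at most 3 counts in a D2A1 library, a rise of at least 2327-fold. Abcb1b, a drug efflux pump, had 66.1, 146 and 107 CPM and was at least 1750.2-fold higher. The potassium channel Kcnk1 had 46.3, 34 and 42.8 CPM, at least 676-fold higher than in D2A1. By the rule that chose them, all D2.OR libraries expressed these 3 genes and no D2A1 library held more than 3 counts. Dsg2, a desmosomal cadherin, had 42, 28.7 and 39.1 CPM (at least 603-fold). Lad1, an anchoring filament protein of basement membrane, had 46.7, 19.3 and 32.4 CPM (at least 540.1-fold). Cdcp1, a transmembrane substrate of Src kinases, had 36.8, 28.7 and 31.2 CPM (at least 531-fold). The other 4 were the membrane protein gene Prrg3, the ubiquitin ligase gene Rnf125, the integrin ligand gene Edil3 and the semaphorin gene Sema3e, whose bounds ran from 445-fold to 551-fold. Outside the 10, and chosen after their values were seen, were several regulators. The DNA demethylase Tet1 had 2.61, 3.83 and 2.53 CPM in D2.OR, and Lin28b, which blocks the maturation of let-7 microRNAs, had 7.49, 6.31 and 6.85 CPM. The prolactin receptor Prlr had 24.8, 5.42 and 4.36 CPM, highest in replicate 1.

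Among the 53 genes silent in D2.OR, 49 were protein-coding, and 8 had no count in any D2.OR library. Their mean level in D2A1 ran from 1.24 to 41.3 CPM, with a median of 4.83 CPM, and 15 reached 10 CPM. Hs6st2, which sulfates heparan chains, had 46, 44 and 34 CPM in D2A1, and its level in D2.OR was at least 691-fold lower. Zc3h12c, a member of a family of zinc finger ribonucleases, had 41.6, 22.9 and 23.2 CPM (at least 489-fold lower). Pcolce2, which enhances procollagen processing, had 26.1, 21.4 and 15.5 CPM (at least 352-fold lower). None of these was expressed in any D2.OR library. Ereg, a ligand of the EGF receptor, varied more between batches, at 12.4, 30.6 and 15.1 CPM. Morc1, which represses transposons in the male germline, had 19.2, 12.6 and 13.7 CPM and was at least 254-fold lower. Tbx3, a transcription factor of the mammary bud, had 12.3, 12.9 and 16.6 CPM and was at least 233-fold lower. The other 4 were the tubulin cofactor-like gene Tbcel, the splicing regulator gene Khdrbs3, Rnf219 and Oaf, with D2A1 levels of 14.4 to 21.3 CPM in single libraries and bounds of 251-fold to 309-fold.

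**Figure D2:**
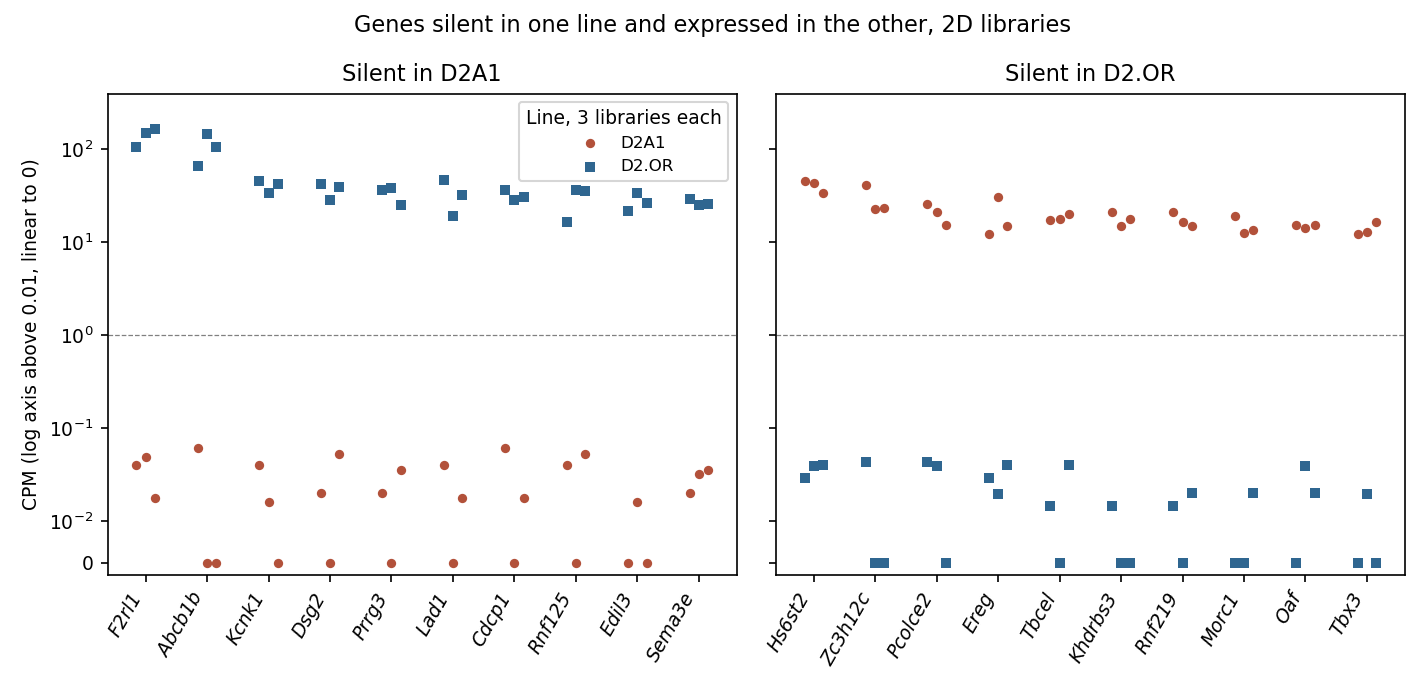
CPM in each 2D library (log axis above 0.01, linear to 0; colors mark the line, 3 points each) of the 10 genes with the highest level that were silent in D2A1 (left) and the 10 silent in D2.OR (right). The expressing line lies between 12.3 and 165 CPM and the silent line at 0.0607 CPM or less for all 20 genes.

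The sequences before the start sites of 4 of these genes are shown because a gene that is off in one line and on in the other is often compared with the CpG content of its promoter, where DNA methylation acts. They are the 2 most highly expressed genes of each direction that had an entry in the promoter table of RefSeq (GRCm38.p6). Each line gives the 250 bases before the start site in that table, 5′ to 3′ on the strand of the gene, with CG dinucleotides in capitals. The regions are chr5:8797897-8798146 (plus strand), chr8:125994852-125995101 (plus strand), chrX:51681603-51681852 (minus strand) and chr9:52168407-52168656 (minus strand).
Abcb1b: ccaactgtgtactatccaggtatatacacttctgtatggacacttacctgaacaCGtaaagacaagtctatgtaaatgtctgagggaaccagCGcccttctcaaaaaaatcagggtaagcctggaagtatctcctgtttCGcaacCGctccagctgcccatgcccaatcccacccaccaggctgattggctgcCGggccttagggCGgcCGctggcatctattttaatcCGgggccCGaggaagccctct
Kcnk1: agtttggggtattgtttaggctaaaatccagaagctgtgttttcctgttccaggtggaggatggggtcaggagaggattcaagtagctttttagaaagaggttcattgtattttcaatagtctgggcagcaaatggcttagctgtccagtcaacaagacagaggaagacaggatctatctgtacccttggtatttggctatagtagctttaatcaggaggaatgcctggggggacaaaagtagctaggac
Hs6st2: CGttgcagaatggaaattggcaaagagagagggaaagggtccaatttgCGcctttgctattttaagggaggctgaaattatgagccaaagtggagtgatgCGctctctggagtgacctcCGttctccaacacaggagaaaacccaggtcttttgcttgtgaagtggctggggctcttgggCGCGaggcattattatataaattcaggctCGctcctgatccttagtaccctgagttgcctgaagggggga
Zc3h12c: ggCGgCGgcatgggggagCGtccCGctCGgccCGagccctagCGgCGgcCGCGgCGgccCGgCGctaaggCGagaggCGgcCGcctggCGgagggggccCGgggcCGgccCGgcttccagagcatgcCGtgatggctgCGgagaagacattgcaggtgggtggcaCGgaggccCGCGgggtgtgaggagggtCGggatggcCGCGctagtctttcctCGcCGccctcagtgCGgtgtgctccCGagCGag
The CG dinucleotide occurred 9 times before Abcb1b, 7 times before Hs6st2, 33 times before Zc3h12c and 0 times before Kcnk1. Of all promoters in the table, 92.1% held at least 1 CG in these 250 bases, the median was 6, and 4.03% held as many as Zc3h12c. In the 50 bases after the start site of the table, which are not shown, Kcnk1 had 10 CG, Hs6st2 5, Zc3h12c 8 and Abcb1b 3. The start sites differ from the gene models used for counting: the window of Kcnk1 ended 68 bases before its counted gene, that of Hs6st2 lay within the gene with all 250 bases and that of Zc3h12c with 166, and only the window of Abcb1b ended at the start of the gene. A comparison of the groups was void, since entries matched only 63.7% of the protein-coding genes silent in D2A1, 67.3% of those silent in D2.OR and 73.6% of all those tested. Methylation itself was not measured in the files used here.

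The 3D libraries were not used to choose these genes and give a second reading of the same lines. All 102 genes silent in D2A1 had higher CPM in every D2.OR library in 3D than in any D2A1 library, a pattern shown by 29.9% of all genes tested. By the same limits 66 were again silent in D2A1, 81 were again expressed in D2.OR, and 55 met both. The highest level that any of them reached in a D2A1 library in 3D was 0.680 CPM. F2rl1 had 39, 39.6 and 44.5 CPM in D2.OR in 3D, below its level in 2D. Of the 53 genes silent in D2.OR, 52 did not overlap in 3D (30.2% of all genes tested), 45 were again silent and 36 met both limits. The exception was Aox4, an aldehyde oxidase, which had 67 counts in D2.OR 3D replicate 2.

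Silent genes had a silent neighbor in a few cases. Among the genes expressed in either line, 8 of the 102 genes silent in D2A1 (7.84%) had a direct neighbor that was silent there too, against 1.6% of all 12529 genes, and 7 of the 53 silent in D2.OR (13.2%) did, against 0.83%. These are counts without a test. All neighbors were expressed in the silent line for 74 and 42. Pairs of neighbors that were silent together, in which both genes are counted, included Hoxc6 and Hoxc4 in the HoxC cluster, the desmosomal cadherins Dsc2 and Dsg2, and, in D2.OR, Pou4f1 and Rnf219. The others were Cxx1a and Cxx1b, and Klrb1b and Gm44511, and in D2.OR Cldn34c1 and Cldn34c3, and Olfr1033, Olfr1034 and Olfr1035-ps1. By chromosome, the X held 11 of the genes silent in D2A1 among 400 expressed genes (2.75%), chromosome 18 held 7 of 326 (2.15%) and chromosome 7 held 12 of 928 (1.29%), against 0.814% over all chromosomes. Chromosome 9 held 11 of the 53 genes silent in D2.OR among 721 (1.53%, against 0.423%). There, 7 lay within 16.6 Mb (chr9:35536647-52168572), namely Ddx25, Tbcel, Oaf, Nxpe4, Ttc12, Colca2 and Zc3h12c. In the same stretch 95 genes were expressed in D2.OR and 100 in D2A1, 35 of the 151 genes tested were higher and 34 lower in D2.OR, and the median log2-fold change was 0.04.

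A larger share of transcription factor genes than of all genes passed the 4-fold rule, a description without a test. Of 690 listed, 427 were tested, 248 differed (58.1%, against 49.8% of all genes), and 96 passed the 4-fold rule (22.5%, against 13.5%), 66 higher and 30 lower in D2.OR. With at least 10 counts in every library 35 passed it, and with limma on log2(TPM + 1) 38. Their median log2-fold change was 0.22, and 0.06 with the library total. Among those higher in D2.OR, Pax6, known from the eye and the pancreas, had 0.0809, 0.065 and 0.0527 CPM in the D2A1 libraries against 24.5, 26.3 and 28.1 CPM in D2.OR (log2-fold change 8.6 ± 0.20 SE, edgeR adjusted p = 2.89e-08). The estrogen receptor gene Esr1 had 0.0809, 0.163 and 0.0176 CPM in the D2A1 libraries against 12.2, 15.4 and 10.9 CPM in D2.OR (log2-fold change 7.18 ± 0.48 SE, edgeR adjusted p = 5.39e-06). For both genes, which were named for the size of their change, the lowest D2.OR library was far above the highest D2A1 library. The tumor suppressor gene Trp53 had 15.9, 18.5 and 14.5 CPM in the D2A1 libraries against 2254, 1604 and 1606 CPM in D2.OR (log2-fold change 6.8 ± 0.21 SE, edgeR adjusted p = 6.77e-08). The lines did not overlap, as for 53.2% of all genes tested. These are RNA levels, whereas the study could not detect p53 protein in D2.OR or D2A1 and proposes that both lack functional p53. Hoxa9, which sets position along the body axis, had 0.829, 0.797 and 1.21 CPM in the D2A1 libraries against 33.8, 31.6 and 47.1 CPM in D2.OR (log2-fold change 5.31 ± 0.16 SE, edgeR adjusted p = 6.77e-08). Hey1, a target of Notch signaling, had 0.485, 0.0975 and 0.369 CPM in the D2A1 libraries against 74.5, 47.2 and 45.5 CPM in D2.OR, with a log2-fold change of 7.5. The rule also named Foxs1 (9.17), Prdm1 (5.93), Creb3l1 (5.25) and Irx3 (5.13).

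In the other direction, Gli2, an effector of Hedgehog signaling, had 24.5, 55.6 and 44.8 CPM in the D2A1 libraries against 0.0577, 0.0196 and 0 CPM in D2.OR (log2-fold change -10.34 ± 0.63 SE, edgeR adjusted p = 3.12e-06). Lmx1b, a LIM homeobox factor of limb patterning, had 18.8, 19.8 and 19.3 CPM in the D2A1 libraries against 0.0722, 0.0786 and 0.0398 CPM in D2.OR (log2-fold change -8.19 ± 0.21 SE, edgeR adjusted p = 3.06e-08). Zeb1, a repressor of E-cadherin that drives epithelial-mesenchymal transition, had 45.9, 42.3 and 43.9 CPM in the D2A1 libraries against 8.54, 7.31 and 5.3 CPM in D2.OR (log2-fold change -2.68 ± 0.35 SE, edgeR adjusted p = 0.000287), so that D2.OR still expressed it at a lower level. Pitx1, a factor of hindlimb identity, had 29.3, 29.7 and 29.8 CPM in the D2A1 libraries against 5.2, 4.71 and 6.65 CPM in D2.OR (log2-fold change -2.43 ± 0.14 SE, edgeR adjusted p = 2.4e-06). These 4 genes, named for the size of their change, did not overlap between the lines, as was so for 53.2% of all genes tested. The bZIP factor Hlf, whose level in D2A1 replicate 1 was below that in replicates 2 and 3, had 33.4, 160.0 and 189 CPM in the D2A1 libraries against 2.84, 6.11 and 7.43 CPM in D2.OR (-4.31 on the log2 scale). Foxf2 (-3.94) and Arnt2 (-2.78) fell as well. Rora fell by 2.48 (edgeR adjusted p = 0.0084), a call that was lost without the replicate block.

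By family, the counts below stand beside 25.4% of all genes tested that were higher and 24.4% that were lower, and families were not tested against each other. Of 15 Hox genes tested, 8 were higher and 2 were lower in D2.OR, among them Hoxa13 (-3.4). In the HoxC cluster, Hoxc6, Hoxc5 and Hoxc4 stayed at or under the floor of 3 counts in the D2A1 libraries, and their levels in D2.OR exceeded that floor at least 116-fold, 13.8-fold and 31.2-fold. The HoxD gene Hoxd4 rose by 3.42 on the log2 scale. In the HoxA cluster, Hoxa9, Hoxa10 and Hoxa7 rose, whereas Hoxa5 had 52.3, 48.7 and 59.3 CPM in the D2A1 libraries against 41.5, 43.8 and 57.7 CPM in D2.OR and did not pass (edgeR adjusted p = 0.441). Of 59 other homeobox genes, 19 were higher and 20 lower, with 11 past 4-fold on each side. Among 34 nuclear receptors, 16 were higher and 4 lower, the latter including Ppara, Nr3c2 and Rora. Besides Esr1, the receptor genes Pparg (7.11) and Esr2 (4.58) rose. The 53 bHLH factors had 24 members higher and 9 lower, and the 25 forkhead factors 5 higher (Foxs1, Foxl1, Foxa1, Foxn2 and Foxk1) and 10 lower. In the group of 21 E2F, Myb, Rfx and Hsf factors, which regulate the cell cycle, cilia and heat shock, 8 were lower, none was higher and none passed 4-fold, and 13 were lower with the library total and 12 with limma on either TPM scale. Silent or expressed by the limits above were Hoxc6, Hoxc4, Sox21, Nkx2-2, Bcl11b and Ebf3 (silent in D2A1) and Hlx, Pou4f1, Dmrta1, Tbx3 and Dlx5 (silent in D2.OR). Nkx2-2, a factor of the ventral neural tube, had 0 counts in D2A1 but 2.7, 3.6 and 2.47 CPM in the D2.OR libraries. Dlx5, a homeobox factor of bone and craniofacial development, had 2.51, 5.35 and 7.03 CPM in D2A1 and 0 counts in D2.OR.

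**Figure D3:**
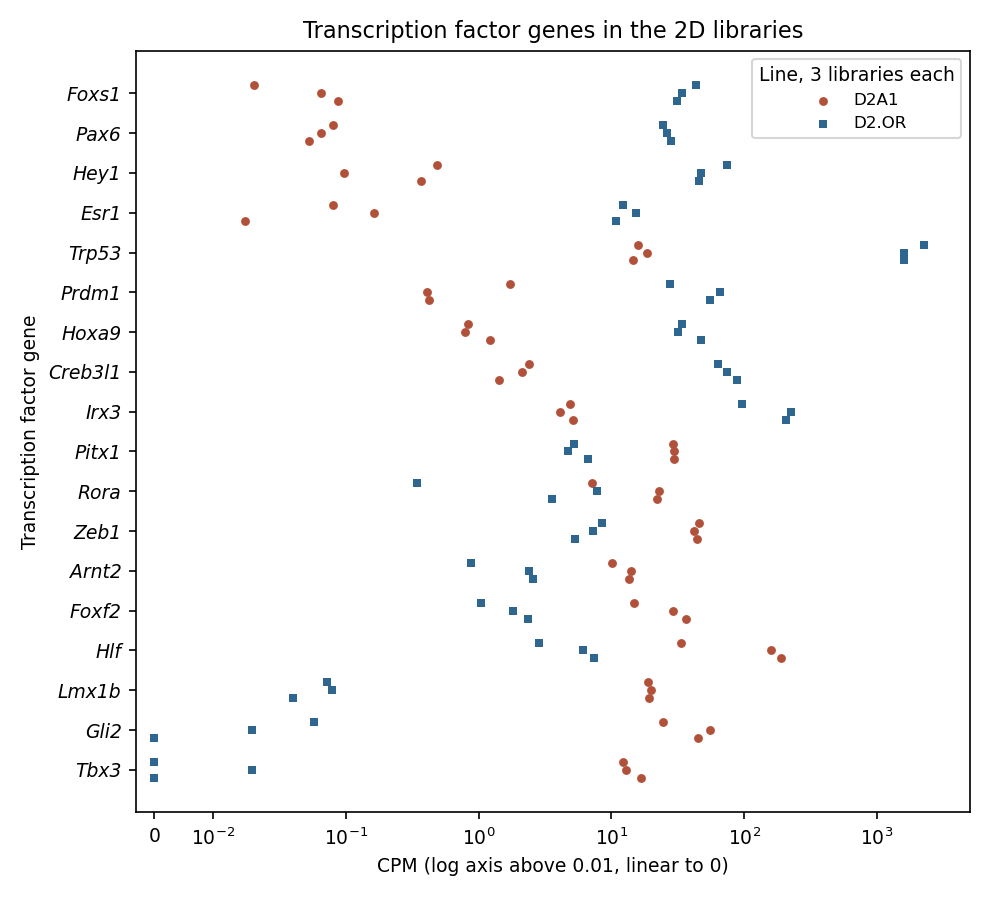
CPM in each 2D library (log axis above 0.01, linear to 0; colors mark the line, 3 points each) of 18 transcription factor genes named by the rule. These genes were named for the size of their change, and the lines, which do not overlap for 53.2% of all genes tested, overlap among these only for Rora, where D2.OR replicate 2 (7.80 CPM) lies above D2A1 replicate 1 (7.12 CPM).

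Among gene groups of the epithelial cell surface, most listed junction and keratin genes rose and no listed one fell. The counts of each group are read beside those of all genes tested, of which 25.4% rose, 24.4% fell and 13.5% passed 4-fold (9.14% higher and 4.38% lower). Of 46 genes of cell junctions, 40 were tested, 27 rose (67.5%), none fell and 22 passed 4-fold (55%), with a median log2-fold change of 2.89 against 0.00 over all genes, or 1.84 with the 10 members at the floor in a line set to their bound. With the library total, 27 rose and 1 (Pard6b) fell. Besides Dsg2 and Cdh1, Lsr, a protein of tricellular tight junctions, had 0.223, 0.0325 and 0.0352 CPM in the D2A1 libraries against 67.8, 61.8 and 76.1 CPM in D2.OR (log2-fold change 9.53 ± 0.53 SE, edgeR adjusted p = 1.74e-06). Desmoplakin (Dsp, 8.0) rose, and the gap junction gene Gjb2, at the floor in D2A1, was at least 254-fold higher. Of a list of 16 keratins, 12 were tested, 10 rose (83.3%) and 9 passed 4-fold (75%, median 5.61, or 4.30 with bounds). Krt7, a simple epithelial keratin, had 0.162, 0.0325 and 0 CPM in the D2A1 libraries against 21.9, 5.3 and 10.4 CPM in D2.OR (log2-fold change 7.59 ± 0.64 SE, edgeR adjusted p = 2.27e-05). Krt20 had 0.445, 0.52 and 0.387 CPM in the D2A1 libraries against 14.4, 7.58 and 20.3 CPM in D2.OR, a log2-fold change of 4.85. Outside the list, the keratin gene Krt10 was silent in D2.OR, with 1.74, 1.71 and 1.67 CPM in D2A1, and at least 28.5-fold lower. The claudin-like genes Cldn34c1, Cldn34c2 and Cldn34c3, outside the list too, were at the floor in D2.OR and at least 80.2-fold, 12.5-fold and 30.1-fold lower. Where every library had to hold at least 10 counts, 14 junction genes and 3 keratins rose. In Dsg2, Cdh1, Lsr, Krt7 and Krt20 every D2A1 library was below 1 CPM.

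Most mesenchyme and matrix genes that passed the test were higher in D2.OR. Of 48 tested, 30 rose and 6 fell, in all 75% against 49.8% of all genes, 22 and 3 of them by 4-fold or more (52.1% against 13.5%, median 2.07, or 1.84 with bounds). Without batch 2, 20 rose and 4 fell, and with at least 10 counts in every library 19 rose. Fbln5, an elastic fiber protein, had 0.728, 0.195 and 0.105 CPM in the D2A1 libraries against 135, 174 and 80.9 CPM in D2.OR (log2-fold change 8.83 ± 0.48 SE, edgeR adjusted p = 1.6e-06). Col6a2, a chain of collagen VI, had 4.83, 22 and 10.4 CPM in the D2A1 libraries against 1663, 3673 and 2827 CPM in D2.OR (log2-fold change 7.88 ± 0.46 SE, edgeR adjusted p = 2.52e-06). Tnc, the matrix glycoprotein tenascin C, had 2.04, 2.28 and 1.27 CPM in the D2A1 libraries against 215, 546 and 609 CPM in D2.OR (log2-fold change 7.85 ± 0.50 SE, edgeR adjusted p = 4.48e-06). The members past 4-fold in the other direction were Col4a1 and Col4a2, which encode chains of the basement membrane collagen IV, and Bgn (-3.12). Col4a2 had 253, 219 and 223 CPM in the D2A1 libraries against 1.31, 1.69 and 1.83 CPM in D2.OR (log2-fold change -7.16 ± 0.25 SE, edgeR adjusted p = 1.31e-07), and Col4a1 had 195, 143 and 157 CPM in the D2A1 libraries against 1.5, 6.31 and 7.43 CPM in D2.OR. The collagen VI genes did not move as one. Col6a1 (6.33) and Col6a3 (4.26) rose like Col6a2, whereas 3 collagen VI genes next to each other on chromosome 9, which were no members of the list, fell. Of these, Col6a5 had 228, 339 and 395 CPM in the D2A1 libraries against 0.303, 0.295 and 0.139 CPM in D2.OR (-10.33 on the log2 scale), Col6a6 was silent in D2.OR with 2.97, 5.19 and 6.33 CPM in D2A1, and Col6a4, at the floor in D2.OR, was at least 8.86-fold lower. Fn1 had 2556, 11183 and 8657 CPM in the D2A1 libraries against 3048, 7128 and 7404 CPM in D2.OR and did not pass (edgeR adjusted p = 0.608).

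Receptors and their ligands came next. Of 33 receptor tyrosine kinases tested, 16 rose and 3 fell (Ephb2, Alk and Tyro3), and the share called (57.6%) was near the 49.8% of all genes. Without batch 2, 10 rose. Egfr, the receptor of EGF, had 0.506, 0.52 and 0.51 CPM in the D2A1 libraries against 239.7, 232 and 169 CPM in D2.OR (log2-fold change 8.68 ± 0.27 SE, edgeR adjusted p = 7.42e-08). Erbb2, its relative without a known ligand, had 40.7, 27.5 and 33.6 CPM in the D2A1 libraries against 652, 550.5 and 497 CPM in D2.OR (log2-fold change 4.07 ± 0.11 SE, edgeR adjusted p = 3.47e-08). Flt1, a VEGF receptor, had 5.5, 0.78 and 1.39 CPM in the D2A1 libraries against 319, 182 and 179 CPM in D2.OR (6.74 on the log2 scale). The ligand Ereg, by contrast, was silent in D2.OR. Of 53 G protein-coupled receptors, 62.3% were called, of which 28 rose and 5 fell (Smo, Fzd7 and, past 4-fold, P2ry14, Ptger2 and Ccr1), and 2 fell without batch 2 or batch 3. With at least 10 counts in every library 14 of these receptors rose and 1 fell. Adgrl2, an adhesion receptor, had 0.0809, 0.0325 and 0.0527 CPM in the D2A1 libraries against 91, 162 and 153 CPM in D2.OR (log2-fold change 11.23 ± 0.39 SE, edgeR adjusted p = 1.28e-07), and the Wnt receptor Fzd8, silent in D2A1, had 15, 14.3 and 13.4 CPM in D2.OR.

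Secreted signals moved in both directions. Of 51 growth factors, 30 rose and 10 fell (78.4% called, against 49.8% of all genes), and of the 5 past 4-fold that fell, Nrg2, Ereg and Bmp2 were at the floor in D2.OR, at least 25-fold, 324-fold and 12.9-fold lower, and Gdnf (-3.0) and Igf1 (-2.96) were not. Inhbb, an activin subunit, had 0.324, 0.666 and 0.246 CPM in the D2A1 libraries against 116, 63.3 and 66.7 CPM in D2.OR (log2-fold change 7.58 ± 0.37 SE, edgeR adjusted p = 9.55e-07), and the lymphangiogenic factor Vegfc had 1.11, 0.244 and 0.211 CPM in the D2A1 libraries against 69.1, 55.7 and 53.8 CPM in D2.OR (7.16). Of 38 chemokines and cytokines, 71.1% were called, of which 23 rose and 4 fell (Cxcl12, Ccl27a, Ccl7 and Il16). The chemokine Cxcl16 had 0.283, 0.374 and 0.334 CPM in the D2A1 libraries against 11.1, 10.7 and 13.6 CPM in D2.OR (log2-fold change 5.16 ± 0.27 SE, edgeR adjusted p = 1.22e-06). Il6 had 0.142, 1.85 and 1.21 CPM in the D2A1 libraries against 3.82, 42.5 and 48.5 CPM in D2.OR (5.0), with replicate 1 lowest in both lines, and Il33 had 0.465, 0.78 and 0.475 CPM in the D2A1 libraries against 24.2, 92.3 and 41.9 CPM in D2.OR (6.41). Of 43 axon guidance genes, 20 rose and 12 fell (74.4% called), with Sema3a at 1.6, 6.23 and 1.97 CPM in the D2A1 libraries against 168, 254 and 263 CPM in D2.OR (6.26) and Ntn4 at 1.38, 0.894 and 0.703 CPM in the D2A1 libraries against 60.4, 56.1 and 57.1 CPM in D2.OR (5.88). Without batch 3, 15 chemokines and cytokines, 22 growth factors and 18 axon guidance genes rose, and 2, 6 and 6 fell. With at least 10 counts in every library 13, 18 and 16 rose, and 1, 5 and 11 fell. Without batch 1, 24 chemokines and cytokines rose and 7 fell. Sema3c and Sema3d fell by 3.25 and 2.67 on the log2 scale.

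Ion channel genes rose in 22 and fell in 8 of 40 cases (75% called, against 49.8% of all genes). With at least 10 counts in every library 12 rose, and 5 fell without batch 2 and 4 without batch 3. The chloride channel Ano1, silent in D2A1, had 15.3, 31.1 and 17 CPM in D2.OR. Cacna1c, a subunit of the L-type calcium channel, had 74.7, 94.8 and 87.1 CPM in the D2A1 libraries against 1.11, 4.89 and 1.55 CPM in D2.OR (log2-fold change -5.26 ± 0.54 SE, edgeR adjusted p = 7.39e-05). Of 43 immune recognition genes, 16 rose and 3 fell (C1s1, Raet1e and Cd274), 44.2% in all. This count depended on the fit, with 29 higher and 5 lower without batch 1, and 27 and 4 with the 2D libraries alone. Without batch 2 or batch 3 it was 11 higher and 1 lower. Klrb1b, a lectin-like receptor of natural killer cells, had 0 counts in all D2A1 libraries and 26.1, 15.2 and 14.8 CPM in D2.OR. Nod1, a sensor of bacterial peptidoglycan, had 2.75, 1.53 and 2.44 CPM in the D2A1 libraries against 29.2, 32.8 and 28.4 CPM in D2.OR (log2-fold change 3.77 ± 0.21 SE, edgeR adjusted p = 1.98e-06), and Clec2d, from a family of ligands of lectin-like receptors, had 2.41, 3.2 and 2.16 CPM in the D2A1 libraries against 37.6, 32.2 and 26.6 CPM in D2.OR (3.6).

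Genes of chromatin, the cell cycle and mitochondrial ribosomes held few large differences, like genes expressed in both lines in general. Of 74 chromatin and DNA methylation enzymes, 18 rose and 20 fell (51.4% called, against 49.8% of all genes). Of them 2, Tet1 and Nsd1, passed 4-fold (2.7%). That share was 13.5% of all genes tested and 3.86% of genes at 1 CPM or more in all 6 libraries. With the library total the counts were 11 and 29, and without batch 2 they were 9 and 8. The histone methyltransferase Nsd1 had 18.5, 17.5 and 11.5 CPM in the D2A1 libraries against 101, 106 and 105 CPM in D2.OR (log2-fold change 2.72 ± 0.16 SE, edgeR adjusted p = 2.68e-06). The Polycomb gene Cbx2 had 15, 18.4 and 29.1 CPM in the D2A1 libraries against 4.66, 5.58 and 8.33 CPM in D2.OR (-1.74), and the deacetylase gene Sirt1 13.3, 9.85 and 7.93 CPM in the D2A1 libraries against 40.8, 24.5 and 28.7 CPM in D2.OR (1.59). Of 59 cell cycle and replication genes, 49 did not pass (16.9% called), 7 fell and 3 rose (Ccnd1, Cdk2 and Cdk4). With the library total 9 fell and 1 rose. The count that rose turned on replicate 1 of D2A1, since 25 rose without that library and 26 without batch 1, against none without batch 2 or batch 3. The count that fell was 17 without replicate 3 of D2A1. Ccnd2, a D-type cyclin, was the exception in size, with 269.9, 224 and 168 CPM in the D2A1 libraries against 2.61, 1.69 and 2.03 CPM in D2.OR (log2-fold change -6.7 ± 0.17 SE, edgeR adjusted p = 3.06e-08). Ccnd1, its relative, had 300.2, 196 and 115 CPM in the D2A1 libraries against 323, 387 and 419.6 CPM in D2.OR (log2-fold change 1.01, edgeR adjusted p = 0.0131). Its log2 difference was 0.10, 0.98 and 1.86 in batches 1, 2 and 3, and its call was lost without the replicate block. Mcm2, a replication helicase subunit, had 199, 208 and 168 CPM in the D2A1 libraries against 63.1, 84.6 and 113 CPM in D2.OR (-1.2). Of 78 mitochondrial ribosome genes, 62.8% were called, of which 44 fell, 5 rose (Mrpl54, Mrps6, Mrps36, Mrpl42 and Mrpl48), and none passed 4-fold (median -0.39, and 56 fell and 1 rose with the library total). Without batch 2, 21 fell and 1 rose, whereas 10 rose without replicate 1 of D2A1 and 2 without replicate 2 of D2A1. Mrpl38 had 75, 92.3 and 92.4 CPM in the D2A1 libraries against 30.3, 23.7 and 28.7 CPM in D2.OR (log2-fold change -1.65 ± 0.13 SE, edgeR adjusted p = 1.68e-05), and Mrpl39 and Mrps10 fell by 1.1 and 1.02 on the log2 scale. Of 13 germline genes tested, 5 fell (Morc1, Hormad2, Taf7l, Brdt and Rhox5) and 2 rose (Piwil4 and Sycp3). With at least 10 counts in every library 2 fell and none rose, and 3 fell and 1 rose without batch 2 or with the 2D libraries alone. Rhox5, an X-linked homeobox gene of the testis, had 601, 598 and 566 CPM in the D2A1 libraries against 380.0, 395 and 450.0 CPM in D2.OR (log2-fold change -0.53 ± 0.10 SE, edgeR adjusted p = 0.00228).

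Genes that both lines expressed were counted apart. Of 11243 genes with at least 1 CPM in all 6 libraries, 300 were at least 4-fold higher and 134 at least 4-fold lower in D2.OR. In all 3.86% passed, against 13.5% of all genes tested. That limit takes out the genes near 0 in a line, so the lower share was set in part by the choice. Notch4, a Notch receptor, had 3.62, 1.53 and 1.44 CPM in the D2A1 libraries against 729, 614 and 629.5 CPM in D2.OR (log2-fold change 8.33 ± 0.39 SE, edgeR adjusted p = 7.06e-07). Adgre5, an adhesion receptor also known as CD97, had 2.1, 2.15 and 1.93 CPM in the D2A1 libraries against 379, 479 and 481 CPM in D2.OR (log2-fold change 7.75 ± 0.16 SE, edgeR adjusted p = 2.89e-08). The carbonic anhydrase Car12 had 3.96, 4.62 and 2.6 CPM in the D2A1 libraries against 283, 815 and 662 CPM in D2.OR (7.19). In D2A1, Aspa, which cleaves acetylaspartate, had 76.2, 80.9 and 88.6 CPM, and 5.3, 1.91 and 1.37 CPM in D2.OR (-4.99). By contrast, the 5 most abundant protein-coding genes by TPM, a level per transcript length, were the same in both lines. They were mt-Atp8, Fth1, mt-Co1, Eef1a1 and Spp1, and none passed the test (edgeR adjusted p from 0.151 to 0.380). Eef1a1, a translation elongation factor, had a TPM of 9615 ± 894 (SD, n = 3) in D2A1 and 10140 ± 370 in D2.OR.

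Along the genome, whole chromosomes were shifted by small amounts. The median log2-fold change of the genes of a chromosome was highest on chromosome 10, at 0.56, and lowest on chromosome 3, at -0.37, a range of 0.93 beside a median of 0.00 for all genes. On chromosome 10 the median was 0.54, 0.57 and 0.62 in batches 1, 2 and 3 and 0.57 in 3D. Of its 838 genes tested, 437 (52.1%) were higher and 67 (8%) were lower in D2.OR. The shift ran along its length, since 12 of 13 stretches of 10 Mb had a median above 0.3 (from 0.27 to 0.71). On chromosome 3 the median was -0.34, -0.33 and -0.33 in the batches, and 374 of 916 genes (40.8%) were lower and 152 higher. There, 11 of 16 stretches were below -0.3. The direction of both chromosomes was the same under every scaling, with 0.39 and -0.54 under the library total, but the medians were smaller with limma on log2(TPM + 1), at 0.27 and -0.30. Chromosomes 6, 16 and 11 followed at -0.31, -0.28 and -0.26 and chromosome 8 at 0.29. The study also karyotyped both lines and reports D2.OR as mostly triploid and D2A1 as mostly hypotetraploid, data that were not analysed here. In the files used, a gain or loss of DNA cannot be told from other differences.

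**Figure D4:**
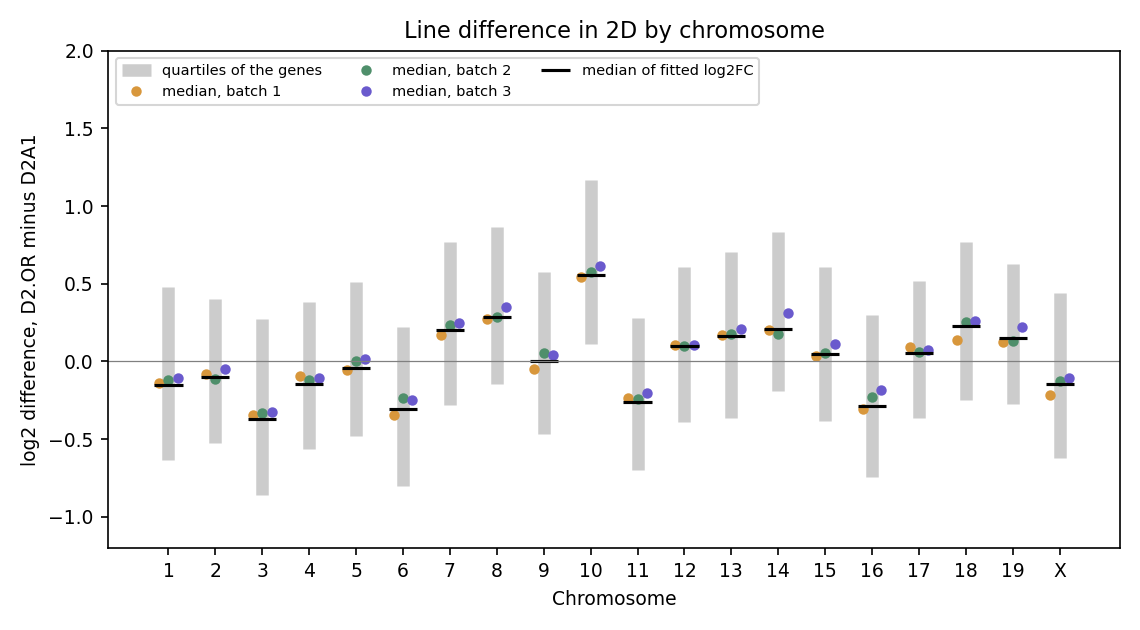
Median log2-fold change (D2.OR minus D2A1) of the tested genes of each chromosome, for the fit and for each of the 3 batches, in 2D. Chromosome 10 lies highest, at 0.56, and chromosome 3 lowest, at -0.37, with the batches close to each other.

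Over the 264 stretches of 10 Mb that held at least 10 tested genes, the medians ran from -0.62 to 1.39, and 193 lay within 0.3 of 0. The highest, at 10 to 20 Mb of chromosome 5, rested on 13 genes and differed by batch, with 0.16, 1.02 and 2.1, and was 0.01 in 3D. The next, at 90 to 100 Mb of the same chromosome, had a median of 0.78 over 83 genes and 0.75, 1.0 and 1.11 in the batches. It holds the Cxcl chemokine cluster and the longest run described next.

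Neighboring genes also differed together over short distances. A run was defined as 3 or more tested genes next to each other, all at least 4-fold different in the same direction. There were 86 runs, 72 higher and 14 lower in D2.OR, with 335 genes in all, on 19 chromosomes, and 18 had 5 genes or more. Far fewer were found when genes near 0 in a line were left out or moved little by the scale, with 7 runs where every library had to hold at least 10 counts, 8 with limma on log2(TPM + 1) and 47 on log2(TPM + 0.1). Many of the longest hold families of near-identical genes that can share reads, so that the level of a single member is uncertain and sums over the run are given. The longest, 20 genes from Kat2b-ps to Gm7982 (chr5:93390602-95746617), summed to 0.809, 0.553 and 0.439 CPM in D2A1 against 42.9, 8.78 and 5.82 CPM in D2.OR. All D2.OR libraries exceeded all D2A1 libraries, but D2.OR replicate 1 was well above the others. Without D2.OR replicate 1, 14 of its 20 genes passed the 4-fold rule. The Zscan4 genes on chromosome 7 (Zscan4b to Tpt1-ps4, chr7:10900740-11916492) summed to 0.263, 0.0813 and 0.105 CPM in D2A1 against 25.3, 3.38 and 2.19 CPM in D2.OR, and 5 of the 6 passed without that library. A run from AC126554.1 to BB287469 on chromosome 12 went from 0.283, 0.130 and 0.0879 CPM to 19.09, 3.40 and 2.11 CPM, and all 6 of its genes passed without that library. The Pramef genes on chromosome 4 (BC080695 to Pramef25) went from 0.263, 0.146 and 0.105 CPM to 15.6, 2.28 and 1.61 CPM, and only 3 of 6 passed without it.

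Other runs stood apart less in replicate 1 or not at all. The type I keratins on chromosome 11 (Krt13, Krt15, Krt14, Krt16, Krt42 and Gm12349, chr11:100117327-100293711) summed to 0.283, 0.114 and 0.0352 CPM in D2A1 against 13.0, 6.56 and 10.8 CPM in D2.OR. The run from Dapk1, a death-associated kinase, to the protease inhibitor Ctla2a on chromosome 13 summed to 0.890, 0.585 and 0.457 CPM and 16.3, 56.1 and 36.9 CPM, lowest in replicate 1, and its genes Ctla2b, Ctla2a, CT010498.2 and AC160962.1 overlap each other. The chemokine cluster from Rassf6 to Cxcl1, whose products attract neutrophils, summed to 11.8, 78.4 and 40.2 CPM in D2A1 against 254, 1062 and 1236 CPM in D2.OR. In 3D this cluster overlapped between the lines, with 47.8, 1066 and 1005 CPM in D2A1 against 448, 814 and 1159 CPM in D2.OR. In the other direction, the olfactory receptor genes Olfr1032 to Olfr1036 on chromosome 2 summed to 12.5, 9.85 and 10.2 CPM in D2A1 against 0.0433, 0.0393 and 0.0398 CPM in D2.OR. That was the only run of 5 or more genes that was lower in D2.OR.

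**Figure D5:**
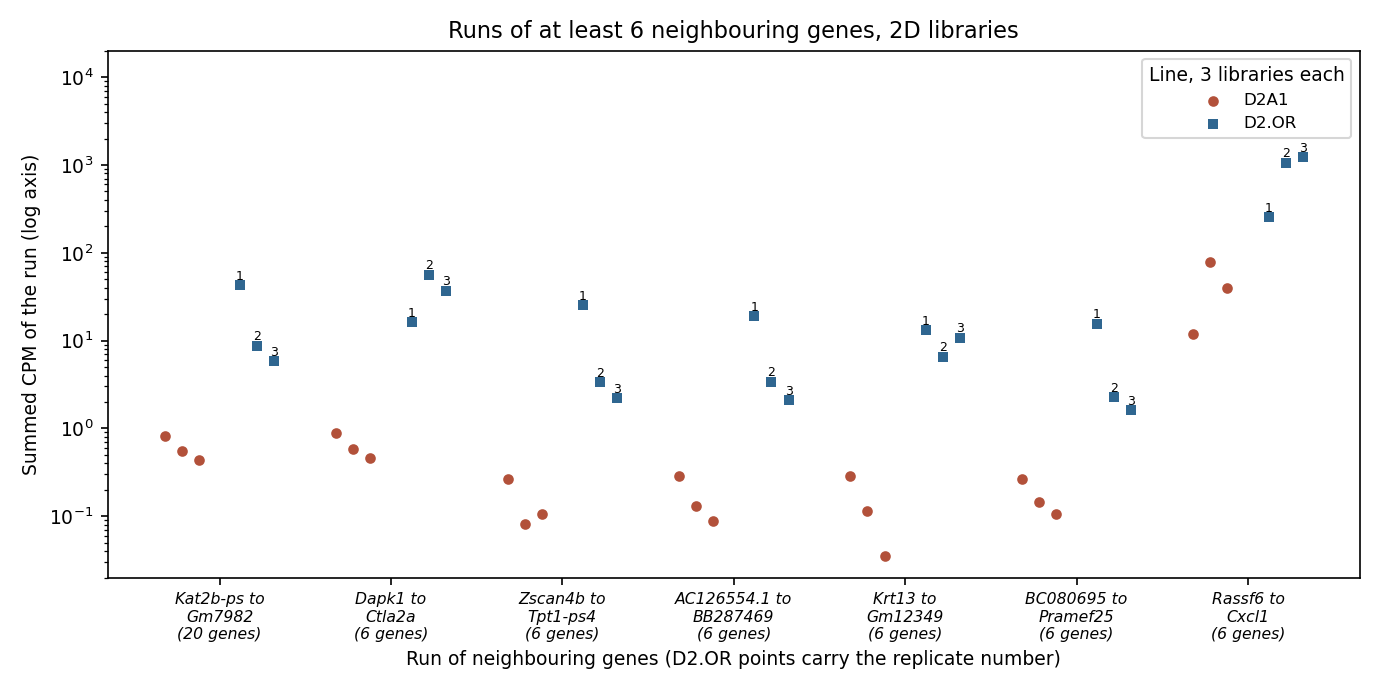
Summed CPM (log axis) of each of the 7 runs of at least 6 neighboring genes in the 6 libraries in 2D, with colors for the line and 1 point per library. In all of them the D2.OR libraries lie above the D2A1 libraries, and D2.OR replicate 1 is the highest library in all but the runs from Dapk1 to Ctla2a and from Rassf6 to Cxcl1, where it is the lowest of the D2.OR libraries.

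Several of these runs hold genes that mark the cleavage-stage embryo. A list of 25 such genes was written after these values were seen, and is a description only. Their summed CPM was 3.38, 1.58 and 1.74 in D2A1 and 84.3, 25.7 and 20.7 in D2.OR. In 3D the sums were 3.30, 1.78 and 1.97 CPM in D2A1 against 22.3, 11.9 and 16.6 CPM in D2.OR. The lines did not overlap in either culture, and D2.OR replicate 1 in 2D stood apart, with the highest CPM of 22 of the 25 genes. Sp110, a nuclear body protein, made up much of the sums in the other D2.OR libraries, with 29.5, 14.3 and 13 CPM in D2.OR against 2.16, 0.78 and 0.897 CPM in D2A1. Without Sp110 the sums were 1.21, 0.797 and 0.844 CPM in D2A1 against 54.9, 11.4 and 7.67 CPM in the D2.OR libraries, and 22 of the 24 other genes were under 1 CPM in both D2.OR replicates 2 and 3. Zscan4f, a marker of this stage, had 8, 3 and 0 counts in D2A1 and 383, 34 and 7 counts in D2.OR, and its call was lost without D2.OR replicate 1. Duxf3, a copy of the activator gene Dux, had 0, 2 and 4 counts in D2A1 and 26, 22 and 7 counts in D2.OR. Whether depth, batch or the cells of that library account for its values was not tested.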

How the data were processed

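RNA-seq was analysed for 3 D2A1 and 3 D2.OR libraries in 2D. The authors trimmed reads with Trimmomatic 0.32 (quality control with FastQC 0.11.4), removed reads with undetermined bases, aligned the rest to GRCm38 (GENCODE M15 genes) with STAR 2.5.3, and ran RSEM 1.3.0 on every library. The deposited expected counts are not normalized, and a read that fits several genes is shared out by RSEM. The deposited TPM values were scaled by the authors to gene length and to the library, so that depth is lost. The deposited FPKM values were not used. No column of samples lacked a sample, and strandedness of the counting is not given in the sources used here, so that overlapping and antisense genes are uncertain.

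After rounding, the expected counts were tested with edgeR 4.0.16 in R 4.3.3 (quasi-likelihood test, TMM, edgeR's filter on low counts, Benjamini-Hochberg adjustment, p under 0.05) in 1 fit over the 12 libraries, with a term for each group and a block for the batch. Of 52550 genes, 16823 were tested. The common biological coefficient of variation was 21.2%, with 6 residual degrees of freedom. Log2 differences within a batch were made with a prior count of 2. Libraries are paired by replicate number, since it is the batch in the labels and a term in the study's model. The deviations of same-numbered libraries in 2D correlated at 0.0758 to 0.245 (median 0.191). The 4-fold rule asks for an adjusted p under 0.05, a fitted change of at least 4-fold and the same direction in all batches. The test was tried on simulated counts first.

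The comparison and its gene lists were chosen with earlier results of these data known. The genes named are the 10 silent genes with the highest CPM in each direction, the 5 genes expressed in both lines with the largest fitted change in each direction, the 10 transcription factor genes with the largest change in each direction, the 3 called members of each list with the largest change (both with at least 10 CPM in a line), the members of the 6 longest runs (ties by the sum of absolute changes), the 5 most abundant protein-coding genes by TPM, and the markers. Some genes that these rules name are not reported here. Other genes, given as further examples of a family, list or run, were chosen after their values were seen. Alternatives were a fit without the block, the likelihood-ratio test of DESeq2 1.42.0, limma 3.58.1 on log2(TPM + 1) and log2(TPM + 0.1), other scalings and filters, only the 2D libraries, other limits for silent and expressed genes and for runs, and each batch or library left out.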

Additional observations from a re-analysis of the deposited data

How the results depend on the processing

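Without the replicate block, 7391 genes were called in place of 8378, 2146 passed the 4-fold rule in place of 2274, 91 transcription factor genes did so in place of 96, 74 runs were found in place of 86, and the range of the chromosome medians was 0.945 in place of 0.930. With the 6 libraries in 2D alone 5759 genes were called. Leaving out a batch or a library gave 4227 (without replicate 2) to 9062 (without replicate 1) called genes, with 5400 without replicate 3, and 1855 to 2457 genes past 4-fold. For transcription factor genes the range was 88 to 99, for runs 58 to 96 and for the chromosome medians 0.907 to 0.946. It was 110 to 161 for genes silent in D2A1 and 54 to 81 for genes silent in D2.OR, the highest of both without replicate 1. Requiring at least 10 counts in every library removes genes near 0 in a line, and left 739 genes past 4-fold, 35 of them transcription factor genes, and 7 runs. With limma on log2(TPM + 1) these were 747, 38 and 8, and the chromosome range was 0.566. On log2(TPM + 0.1) there were 47 runs and a range of 0.857, and with no filter on low counts the range was 0.673. A limit of 0 counts gave 24 and 8 silent genes (D2A1 and D2.OR), 10 or fewer counts 214 and 97, and at least 5 CPM in the expressing line 31 and 22. Runs of at least 4 genes numbered 38. Fth1, not called, went from -0.28 to between -0.60 and 0.039 when a replicate was left out, above 0 without D2A1 2D replicate 3 (0.039) and without replicate 3 (0.036). Of the values of named genes under other settings, 2232 kept direction and call, 76 lost the call and 7 gained it. Of 28 counts of called members in the gene lists, higher and lower, 14 moved by over 1.5 times without replicate 2, 12 with at least 10 counts in every library, 11 without replicate 3, 8 with the 2D libraries alone and 6 without replicate 1, and leaving out a single library moved 3 to 7, the most without D2.OR 2D replicate 2. For other changes the cause was not tested. Depth limits the silent genes, since 3 counts are the floor in each library.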

Other observations

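By gene class, with no test of one class against another, 54.1% of 13717 protein-coding genes tested had an edgeR adjusted p under 0.05, and 1310 were at least 4-fold higher and 585 at least 4-fold lower in D2.OR. Of 571 lincRNA genes tested, 38.9% had an edgeR adjusted p under 0.05, and 58 were at least 4-fold higher and 51 at least 4-fold lower in D2.OR. Of 536 antisense RNA genes, 32.1% differed, with 50 and 22 past 4-fold, and of 827 processed pseudogenes 19.6%, with 32 and 15. Among the 1537 genes at least 4-fold higher in D2.OR, 116 (7.55%) had a CPM in D2.OR replicate 1 of at least 4 times that in both other D2.OR libraries.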
